A study of Homo sapiens with 9 samples.

Results

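Keratins are the intermediate filament proteins of epithelial cells. Each filament is built from pairs of a type I and a type II chain, so that a cell needs keratins of both types, and a chain without a partner is unstable. Simple epithelium, such as the luminal layer of the mammary gland, is known for the type II chains KRT7 and KRT8 and the type I chains KRT18 and KRT19. Hair keratins were first described in the hair shaft, and transcripts of some of them are found in breast cancer lines.

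Here, 7 keratin genes were followed, chosen by name as the keratins of simple and luminal epithelium and of hair type that are known from breast lines. The choice was made with earlier results of these data known. They were 7 of the 60664 genes listed for each sample. *KRT7* and *KRT8* encode type II chains and *KRT18* and *KRT19* type I chains of simple epithelium. *KRT80* encodes a type II chain of epithelial cells, and *KRT81* and *KRT86* encode type II hair keratins. RNA was sequenced from MDA-MB-231, a line of human breast cancer often used as a model of triple-negative disease, in 3 groups of 3 samples, all on day 6. Scramble control (SC) cells, which are labelled WT and carry a non-targeting hairpin sequence, were kept in medium of 0.77 cP (SC baseline) or of 8 cP (SC 8 cP). Cells with a short hairpin RNA against *TRPV4*, a calcium-permeable ion channel, were kept in medium of 8 cP (shTRPV4 8 cP, also called shTRPV4 cells). The medium was thickened with methylcellulose, and both lines carry a lentiviral vector that is held under puromycin. The study asked whether a memory of viscosity is laid down in the transcriptome, and whether this needs TRPV4.

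Total counts per sample lay between 64571681 and 103518036, the lowest being that of replicate 2 of SC baseline cells. The labels do not say whether the replicates of a group came from separate cultures, so p-values measure only the spread between these samples, which may be technical. *TRPV4* had 28 to 54 counts in SC baseline cells, 24 to 64 in SC 8 cP cells and 1 to 13 in shTRPV4 cells, and its log2 fold change in shTRPV4 cells relative to SC 8 cP cells was -2.51 (standard error, SE, 0.49; adjusted p = 0.00219). According to the methods of the study, 1 hairpin was used for this line, so an effect of losing TRPV4 and an effect of this hairpin or line cannot be told apart. The samples include no shTRPV4 cells at 0.77 cP, so it cannot be told whether a difference with viscosity depends on the hairpin. Of the markers fixed for the line, the mesenchymal genes *VIM*, *CD44* and *AXL* summed to between 2759 and 3222 CPM, that is counts relative to the scaled library size. The luminal markers summed to between 30.5 and 35.4 CPM, nearly all of it from *EPCAM* and *GATA3*, while *ESR1*, *PGR*, *FOXA1* and *CDH1* had between 0 and 12 counts in a sample. The cells thus carried abundant simple epithelial keratin transcripts with few transcripts of the luminal receptors and E-cadherin. In such bulk samples, fewer cells that express a gene and less RNA of it per cell cannot be told apart.

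Keratins share the stretch that opens the central rod of the chain, the part through which a type I and a type II chain coil around each other. To show how closely members of both types resemble each other where they pair, 30 bases from the start of this helix are given for 5 of them from the coding strand on GRCh38, 5′ to 3′, with the 11 positions at which these 5 genes hold the same base in capitals.
KRT80: CTcAAtgataaatTtGCctCcctaaTtGgC
KRT81: CTcAAcagcaggtTcGCggCcttcaTcGaC
KRT86: CTcAAcagcaggtTcGCggCcttcaTcGaC
KRT18: CTgAAcgaccgccTgGCctCttaccTgGaC
KRT19: CTcAAcgaccgccTgGCctCctaccTgGaC
The 30 bases lie in exon 1 of *KRT80* (chr12:52191606-52191635, minus strand), *KRT81* (chr12:52291100-52291129, minus strand), *KRT18* (chr12:52949432-52949461, plus strand) and *KRT19* (chr17:41527960-41527989, minus strand). In *KRT86* they lie in exon 3 of the reference transcript (chr12:52302253-52302282, plus strand). The lines of *KRT81* and *KRT86* are the same base for base. Those of the type I genes *KRT18* and *KRT19*, and that of the type II gene *KRT80*, differ from them at positions spread along the stretch.

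*KRT81* and *KRT86* are near copies of each other. Their coding sequences were identical at 94.2% of 1454 aligned bases, with a longest identical run of 605 bases, against 76.1% for *KRT7* and *KRT8* and 66.6% for *KRT18* and *KRT19*. The window in which the pair differs most lies near the end of the coding sequence, with 17 of 30 bases identical and the differing bases in capitals.
KRT81: AgtGAcTGGcagTgtcTgCagcgCTccGTg
KRT86: TgtCTcCACcagAgtcAgTagcgTCccCAg
It lies in exon 9 of *KRT81* (chr12:52286403-52286432, minus strand) and exon 11 of *KRT86* (chr12:52308468-52308497, plus strand), and reads over such windows can be assigned to 1 gene. Of the runs of 100 bases in the reference transcript, the read length used here, 30.3% in *KRT81* and 32.0% in *KRT86* were also found in transcripts of other genes, mostly in each other. Since *KRT86* had between 4.98% and 6.06% as many counts as *KRT81*, its values are uncertain where such reads could be assigned to either gene.

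Of the 7 genes, 6 lie within 783.911 kb of chromosome 12. From the lowest position, they are *KRT80* (52168996 to 52192014), *KRT7* (52232520 to 52252186), *KRT86* (52249300 to 52309163), *KRT81* (52285913 to 52291534), *KRT8* (52897187 to 52949954) and *KRT18* (52948871 to 52952906). *KRT19* lies among the type I keratins on chromosome 17 (41523617 to 41528308). *KRT8* and *KRT18* overlap at their starts on opposite strands and share 525 exon bases, and 18.5% of the runs of 100 bases of *KRT18* were found, in antisense, in annotated transcripts of *KRT8*. *KRT7* shares 282 exon bases with *KRT7-AS* and 32 with the pseudogene *KRT87P*, both on the other strand, and *KRT86* shares 126 with a pseudogene on its own strand and up to 221 with a gene on the other. The strand option of the counting is not given in the sources used here, so reads over these bases cannot be assigned with certainty. *KRT19*, *KRT80* and *KRT81* share no exon bases with another gene.

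All 7 genes passed the filter on low counts. Levels between genes were compared per length, as CPM per kb of all annotated exon bases of the gene. Over the 9 samples the level was highest for *KRT19*, with 263 CPM per kb, followed by *KRT8* with 175, *KRT7* with 137, *KRT18* with 104.25, *KRT81* with 80.1, *KRT80* with 58.5 and *KRT86* with 3.44. In SC baseline cells, the level of *KRT18* was 110 ± 3.73 CPM per kb and that of *KRT81* 101 ± 4.99 (SD, n = 3), and the ranges of the samples met. In shTRPV4 cells, the levels of *KRT8* (156 ± 13.97 CPM per kb) and *KRT7* (154 ± 19.7) overlapped, as did those of *KRT81* (62.6 ± 3.77) and *KRT80* (61.4 ± 1.84; SD, n = 3). No other neighbours in this order overlapped within a group. The order at the top depended on the length used. Many annotated exons of *KRT8* lie outside its reference (MANE Select) transcript, and with the length of that transcript *KRT8* stood first with 676 CPM per kb, ahead of *KRT19* with 443 and *KRT7* with 338. *KRT8* was also first with the longest protein-coding transcript.

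**Figure D1:**
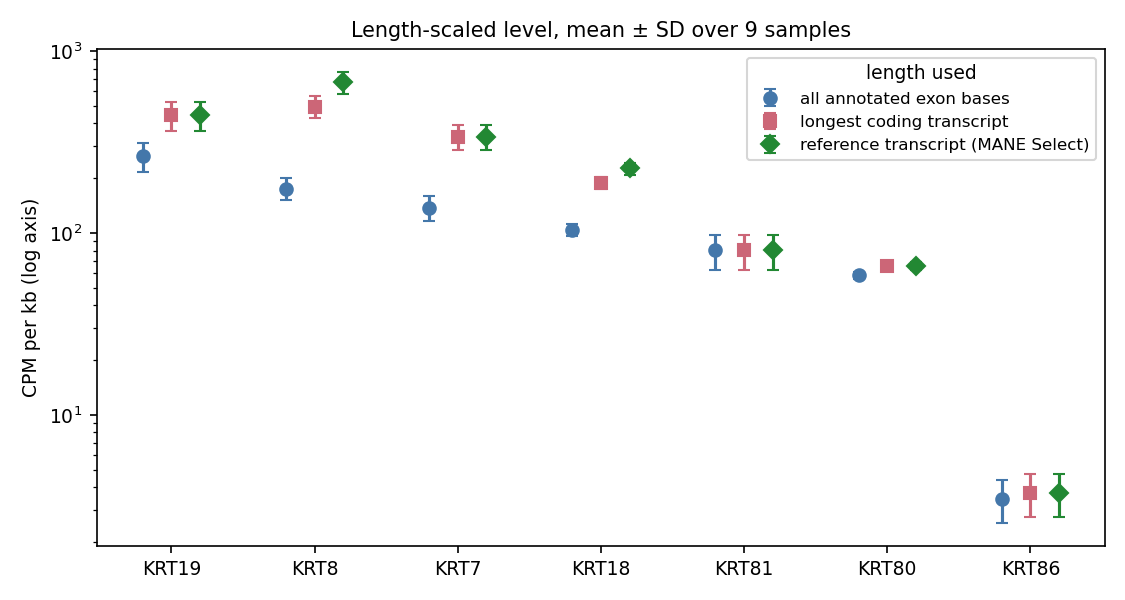
Length-scaled level of each keratin in CPM per kb (log axis), as mean ± SD over the 9 samples, for 3 definitions of a gene's length (circles, squares and diamonds). *KRT19* is highest with all annotated exon bases (263) and *KRT8* with the reference transcript (676), while *KRT86* is lowest with each (3.44 and 3.72 with these lengths).

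At 8 cP, SC cells held less RNA of 6 of the 7 keratins than at 0.77 cP. *KRT7*, *KRT8*, *KRT18*, *KRT19*, *KRT81* and *KRT86* were lower. *KRT18* fell by 13.8%, the least of the 6, and *KRT86* fell by 30.2%, the most, while *KRT80* did not pass the test. Of all 18264 genes tested, 9.69% were lower and 9.57% higher at 8 cP, and 19.3% differed in either direction (edgeR's quasi-likelihood test, Benjamini-Hochberg adjusted p below 0.05). The median log2 fold change of the 7 genes was -0.35, against -0.0065 over all genes tested. The sum of the members' levels was 3524 ± 156 CPM at 0.77 cP and 2867 ± 124 CPM at 8 cP (SD, n = 3).

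The most abundant member by counts was *KRT8* (ENSG00000170421), the type II chain that pairs with KRT18 in simple epithelium. It had 1494, 1395 and 1330 CPM in replicates 1 to 3 of SC baseline cells and 1144, 1175 and 1085 CPM in those at 8 cP. All samples at 8 cP lay below all at 0.77 cP. Here and below, a lack of overlap between groups is only a description, since its share over all genes tested is not given. The log2 fold change was -0.31 (SE 0.062, adjusted p = 0.00403). *KRT18* (ENSG00000111057), its type I partner, had 336, 327 and 350 CPM at 0.77 cP and 299, 291 and 285 CPM at 8 cP, again with no overlap. Its log2 fold change was -0.21 (SE 0.047, adjusted p = 0.00642), the smallest of the members that fell, and without replicate 3 of SC 8 cP cells it was -0.19 (adjusted p = 0.0516).

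*KRT7* (ENSG00000135480), the other type II chain of simple epithelium, had 605, 593 and 537 CPM in SC baseline cells. At 8 cP it had 469, 467 and 426 CPM, all of them lower. The log2 fold change was -0.35 (SE 0.076, adjusted p = 0.00646). *KRT19* (ENSG00000171345), a short type I chain that lacks most of the usual tail, had 796, 764 and 686 CPM at 0.77 cP and 606, 606 and 531 CPM at 8 cP. The groups did not overlap, and its log2 fold change was -0.37 (SE 0.068, adjusted p = 0.00245).

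The hair keratins fell as well. *KRT81* (ENSG00000205426) had 192, 206 and 188 CPM at 0.77 cP and 152, 155 and 136 CPM at 8 cP, with a log2 fold change of -0.40 (SE 0.058, adjusted p = 0.00047). *KRT86* (ENSG00000170442) had 10.7, 12.5 and 9.79 CPM at 0.77 cP and 7.91, 8.14 and 6.86 CPM at 8 cP, with a log2 fold change of -0.52 (SE 0.099, adjusted p = 0.0029). Neither gene overlapped between the groups. When *KRT81*, *KRT86* and the third near copy, *KRT83*, were counted as a single gene, the log2 fold change was -0.41 (SE 0.059, adjusted p = 0.000466). *KRT80* (ENSG00000167767) had 238, 241 and 261 CPM at 0.77 cP and 254, 244 and 255 CPM at 8 cP. These samples overlapped, and the log2 fold change was 0.024 with a 95% interval from -0.074 to 0.12 (adjusted p = 0.757), an interval that holds none of the estimates of the other 6 genes.

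**Figure D2:**
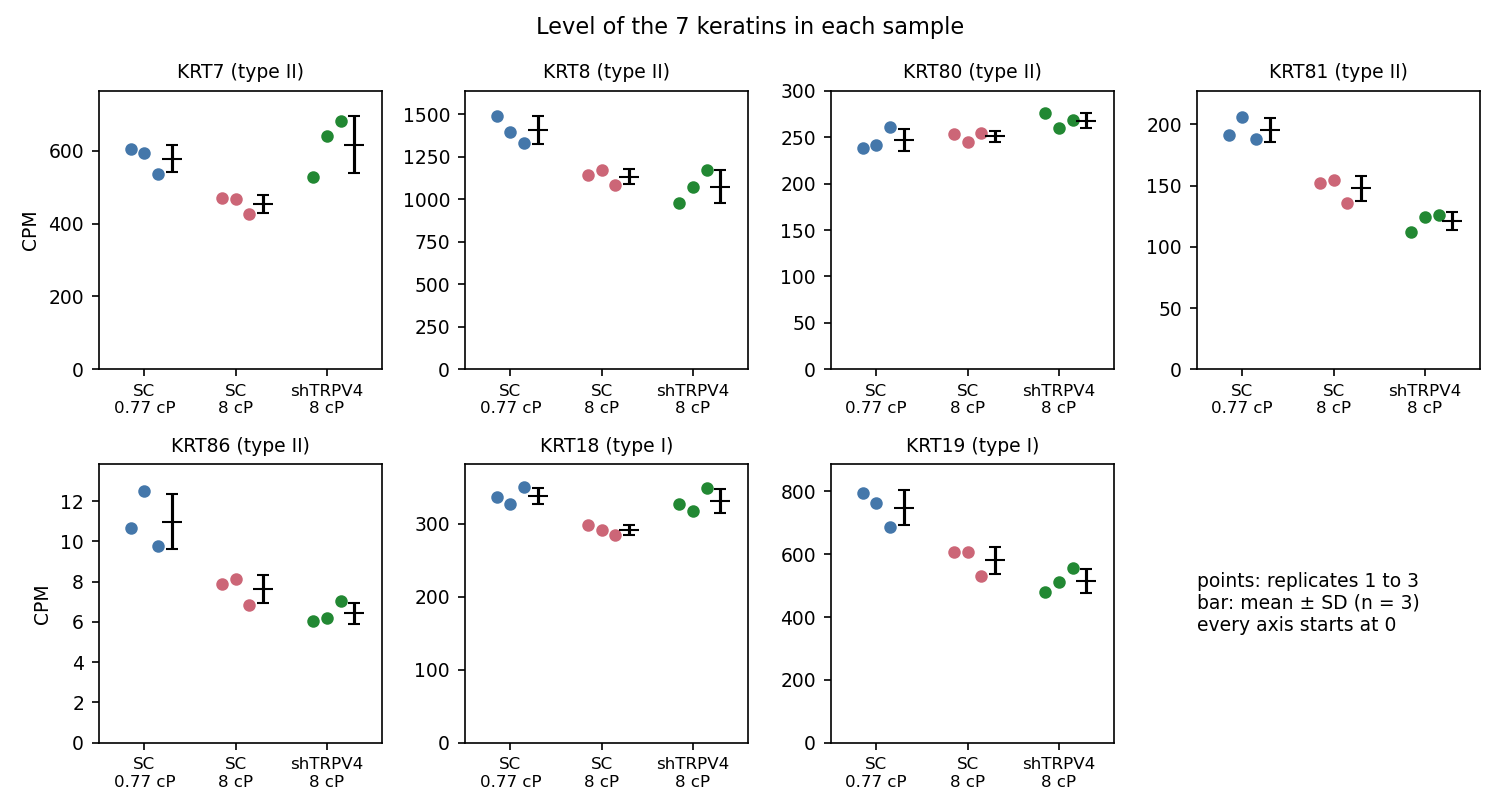
Level in CPM of the 7 keratins in each sample (points; replicates 1 to 3 from left to right in each group), with the mean ± SD of each group (n = 3), on linear axes that start at 0. *KRT8*, *KRT19*, *KRT81* and *KRT86* are lower in both groups at 8 cP than in SC baseline cells, *KRT7* and *KRT18* are lowest in SC 8 cP cells, and *KRT80* lies between 238 and 276 CPM throughout.

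At 8 cP, the keratins of shTRPV4 cells differed from those of SC cells in both directions. *KRT7* and *KRT18* were higher in shTRPV4 cells, by 35.7% and 13.5%, and *KRT81* was lower, having decreased by 18.2%. The other 4 members did not pass the test. Over all genes tested, 9.02% were higher and 11.0% lower in shTRPV4 cells, and 20.0% differed in either direction, so the count of 3 of 7 members is to be read against that share. The median log2 fold change of the members was -0.077, and that of all genes tested 0.00064.

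*KRT7* had 528, 639 and 681 CPM in replicates 1 to 3 of shTRPV4 cells. Each of these lay above the 3 SC 8 cP samples (426 to 469 CPM), although the spread was wider than in either SC group. The log2 fold change was 0.44 (SE 0.077, adjusted p = 0.000873). *KRT18* had 326, 317 and 349 CPM in shTRPV4 cells, also above the SC 8 cP samples, with a log2 fold change of 0.18 (SE 0.047, adjusted p = 0.0126). This call was lost without replicate 2 or 3 of SC 8 cP cells (adjusted p = 0.0604 and 0.0558) and without replicate 3 of shTRPV4 cells (adjusted p = 0.0547).

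*KRT81* had 112, 124 and 126 CPM in shTRPV4 cells, below all SC 8 cP samples, and its log2 fold change was -0.29 (SE 0.059, adjusted p = 0.00268). For *KRT86* the levels were 6.06, 6.20 and 7.02 CPM, and the log2 fold change of -0.25 (95% interval -0.46 to -0.034) did not pass (adjusted p = 0.098). The highest shTRPV4 sample of *KRT86* lay above the lowest SC sample at 8 cP. *KRT8* had 981, 1074 and 1173 CPM in shTRPV4 cells and overlapped with SC 8 cP cells, with a log2 fold change of -0.077 (95% interval -0.21 to 0.056, adjusted p = 0.434). *KRT19* had 481, 511 and 557 CPM, the highest above the lowest SC 8 cP sample, and its log2 fold change was -0.17 (95% interval -0.31 to -0.026, adjusted p = 0.0912). *KRT19* passed without replicate 3 of SC 8 cP cells (adjusted p = 0.0325), without replicate 3 of shTRPV4 cells (adjusted p = 0.0344) and with no filter on low counts (adjusted p = 0.00746). *KRT80* had 276, 260 and 268 CPM, all above the SC 8 cP samples, and a log2 fold change of 0.095 (95% interval -0.0029 to 0.19, adjusted p = 0.168).

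shTRPV4 cells differ from SC baseline cells in viscosity and in hairpin at once. *KRT8*, *KRT19*, *KRT81* and *KRT86* were lower in shTRPV4 cells, with log2 fold changes of -0.39, -0.54, -0.69 and -0.77 (adjusted p = 0.000148, 1.66e-05, 3.45e-07 and 2.21e-05), and none of them overlapped between the groups. *KRT80* was higher by 8.60% (log2 fold change 0.12, adjusted p = 0.0484), but its samples overlapped and the call was lost in 8 of 9 refits without 1 sample. *KRT7* had a log2 fold change of 0.091 (95% interval -0.071 to 0.25, adjusted p = 0.365) and *KRT18* of -0.032 (95% interval -0.13 to 0.068, adjusted p = 0.628). Without replicate 1 of shTRPV4 cells, *KRT7* passed with 0.19 (adjusted p = 0.0147). Over all genes tested, 20.4% were higher and 22.0% lower in this comparison, 42.4% in either direction. The 3 comparisons share their groups in pairs, so their values are not independent of each other.

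**Figure D3:**
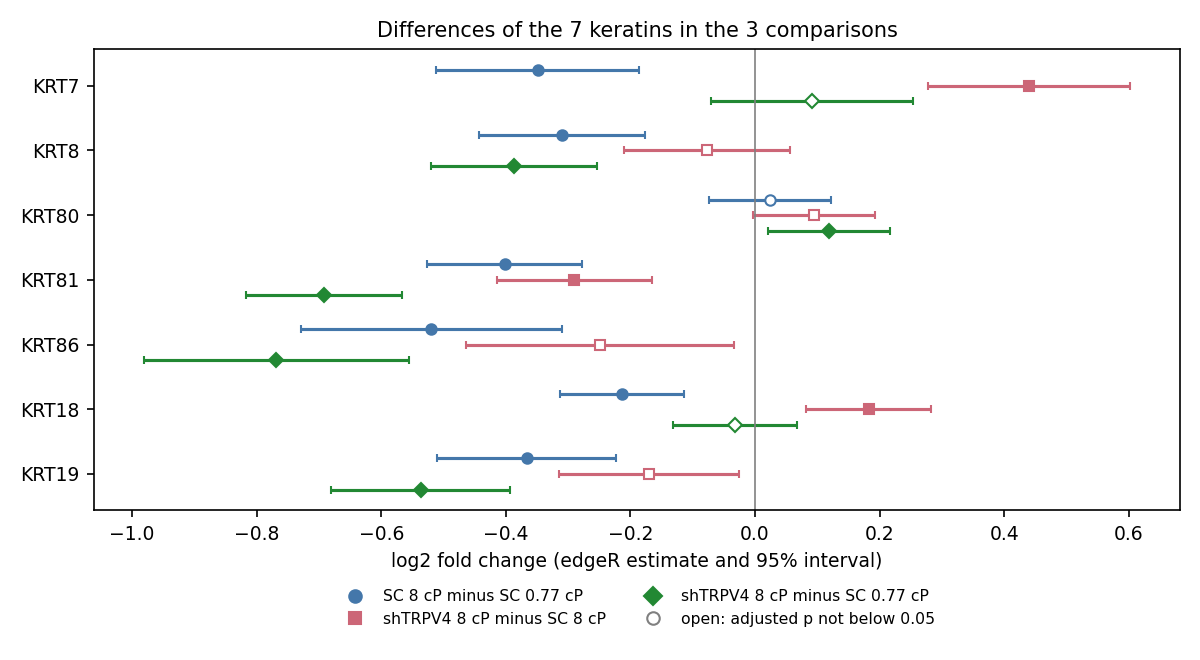
Log2 fold change of each keratin with its 95% interval from the edgeR model, for SC 8 cP cells against 0.77 cP (circles), shTRPV4 against SC 8 cP cells (squares) and shTRPV4 cells against SC baseline cells (diamonds). Filled symbols have an adjusted p below 0.05; 6 circles are filled and negative, while the filled squares lie on either side of 0, with *KRT7* at 0.44 and *KRT81* at -0.29.

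Across the 9 samples, *KRT8*, *KRT19*, *KRT81* and *KRT86* varied together, with Pearson's r of log2 CPM between 0.925 (*KRT8* and *KRT81*) and 0.979 (*KRT8* and *KRT19*). For *KRT7* and *KRT18* r was 0.791, and for *KRT80* with *KRT8*, *KRT19*, *KRT81* and *KRT86* it was negative, from -0.728 to -0.779. *KRT8* and its partner *KRT18* had an r of 0.431. These values describe 9 samples that fall into 3 groups and share their library totals, and *KRT81* and *KRT86* may in part share reads. For *KRT19*, the member with the highest level per length, the genes with the most similar pattern were *COQ8B*, which acts in coenzyme Q synthesis (r = 0.995, n = 9), *RABAC1*, a binder of Rab proteins (0.995), and *ACSF2*, an acyl-CoA synthetase (0.994). For *KRT86*, the member with the widest range of group means (0.77 on the log2 scale), they were *GRAMD1A*, a sterol transfer protein, *TKFC*, a kinase of small sugars, and *SLCO2A1*, a prostaglandin transporter (r = 0.989 for each, n = 9). The level of *SLCO2A1* was low, with means of 0.443, 0.128 and 0.0605 CPM in SC baseline, SC 8 cP and shTRPV4 cells. All of these genes were picked for the highest r among the genes tested.

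The balance between partner chains was taken from the ratio of *KRT8* to *KRT18* counts, which needs no scaling between samples. Reads over the 525 exon bases that these genes share cannot be assigned with certainty, which may affect the ratio. The ratio was 4.44, 4.26 and 3.799 in SC baseline cells, 3.83, 4.04 and 3.81 in SC 8 cP cells, and 3.005, 3.39 and 3.36 in shTRPV4 cells. The shTRPV4 samples lay below all 6 SC samples. The log2 ratio in shTRPV4 cells was -0.26 relative to SC 8 cP cells and -0.36 relative to SC baseline cells (two-sided exact permutation p = 0.1 for each, n = 3 per group). That p is the smallest that 3 samples against 3 allow. Between the SC groups the difference was -0.095 (two-sided exact permutation p = 0.4, n = 3 per group).

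The sum of all 5 type II members over the sum of both type I members, in CPM per kb of the reference transcripts, moved the other way. It was 1.69 ± 0.0091 in SC baseline cells, 1.70 ± 0.033 in SC 8 cP cells and 1.84 ± 0.087 in shTRPV4 cells (SD, n = 3), with the shTRPV4 samples (1.75 to 1.91) above all SC samples (1.67 to 1.73). *KRT7* was the type II member that passed the test as higher in shTRPV4 cells than in SC 8 cP cells, and *KRT8* made up 36.6% of the members' counts in shTRPV4 cells against 39.9% and 39.6% in SC baseline and SC 8 cP cells. The sum of the type I members was 778 ± 34.7, 624 ± 35.5 and 605 ± 37.2 CPM per kb in the same order of groups, and that of the type II members 1314 ± 65.6, 1060 ± 44.2 and 1117 ± 104.06 CPM per kb (SD, n = 3). From SC baseline cells to SC 8 cP cells, both sums were lower and their ratio stayed within the spread of the samples. The size of the ratio depended on the length used. With all annotated exon bases it was 1.17 to 1.20 in SC baseline samples and 1.19 to 1.24 in SC 8 cP samples. In shTRPV4 samples it was then 1.28 to 1.37, again above all SC samples.

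**Figure D4:**
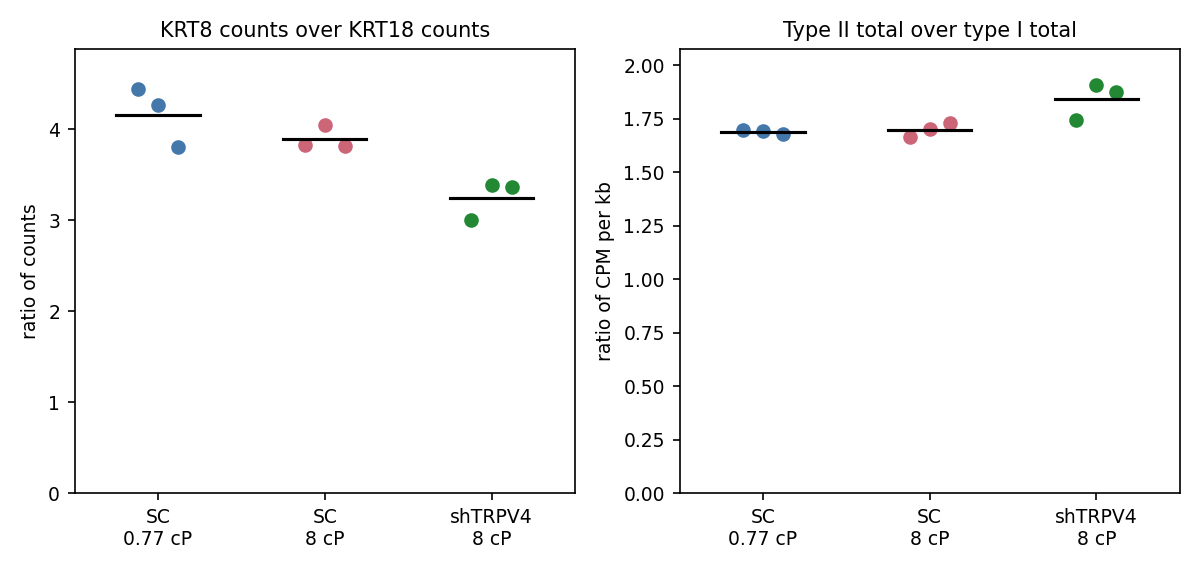
Ratio of *KRT8* to *KRT18* counts (left) and of type II to type I totals per kb of the reference transcripts (right) in each sample. Axes start at 0. Lines are the geometric mean on the left and the mean on the right (n = 3). The shTRPV4 samples are lowest on the left (3.005 to 3.39) and highest on the right (1.75 to 1.91).

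Of 48 other keratin genes listed, 9 passed the filter on low counts. *KRT17*, a type I chain of basal and stressed epithelium, shares 307 exon bases with an antisense gene and had 61 to 120 counts in SC baseline cells, 24 to 57 in SC 8 cP cells and 28 to 35 in shTRPV4 cells. It was lower in both groups at 8 cP than in SC baseline cells, with log2 fold changes of -1.23 (SE 0.28, adjusted p = 0.00737) and -1.55 (SE 0.29, adjusted p = 0.000481). The hair keratin *KRT34* was lower in SC 8 cP cells than at 0.77 cP (log2 fold change -0.61, adjusted p = 0.018). Another pair of type I genes, *KRT33B* and *KRT39*, were higher in shTRPV4 cells than in SC baseline cells, by 2.25 and 1.081 on the log2 scale (adjusted p = 0.0185 and 0.0189), at levels of at most 39 counts in a sample. Between shTRPV4 cells and SC 8 cP cells, 0 of the 9 passed edgeR's test, 0 had an unadjusted p below 0.05, and 0 passed with DESeq2. The basal keratins *KRT5* and *KRT14* had between 0 and 5 counts in each sample.

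Of 12 other intermediate filament genes listed, 5 passed the filter; 3 of these were lower in SC 8 cP cells than at 0.77 cP, and 3 were lower in shTRPV4 cells than in SC 8 cP cells. With edgeR, at an unadjusted p below 0.05 and with DESeq2, 0 of the 5 were higher in either comparison. *VIM*, which encodes the mesenchymal filament protein vimentin and shares 656 exon bases with *VIM-AS1* on the other strand, had 1049 ± 17.3, 931 ± 15.8 and 766 ± 11.9 CPM in SC baseline cells, SC 8 cP cells and shTRPV4 cells (SD, n = 3). No sample of 1 group overlapped with another, and the log2 fold changes were -0.17 at 8 cP in SC cells (SE 0.041, adjusted p = 0.0095) and -0.28 between shTRPV4 cells and SC 8 cP cells (SE 0.041, adjusted p = 0.000193). *NES*, which encodes nestin, was lower in each of these comparisons (-0.32 and -0.33; adjusted p = 0.00319 and 0.00175). *SYNM*, which encodes synemin and shares 2027 exon bases with an antisense gene, was lower in shTRPV4 cells than in SC 8 cP cells (-0.43, adjusted p = 0.00027). *BFSP1*, known from the lens, was lower at 8 cP in SC cells (-0.37, adjusted p = 0.0166). The 5 genes had a median of -0.23 at 8 cP in SC cells and of -0.28 between the lines at 8 cP.

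Desmosomes anchor keratin filaments at cell contacts, and plakins link the filaments to them. Of 20 listed genes of these structures, 14 were tested; 4 were lower and 1 was higher at 8 cP than at 0.77 cP in SC cells (median log2 fold change -0.046). *JUP* (plakoglobin) had a log2 fold change of -0.35 (adjusted p = 0.000738), *PPL* (periplakin) of -0.50 (adjusted p = 0.00213) and *DSP* (desmoplakin) of -0.28 (adjusted p = 0.00737). *PKP4*, a plakophilin relative, rose by 0.37 (adjusted p = 0.00206). Between shTRPV4 cells and SC 8 cP cells, 6 of the 14 were lower (median -0.089), and 0 were higher with edgeR, 2 at an unadjusted p below 0.05 and 1 with DESeq2. The lower genes included *PKP3* (plakophilin 3; -0.30, adjusted p = 0.00195), *DSC2* (desmocollin 2; -0.40, adjusted p = 0.00386), *EVPL* (envoplakin; -0.24, adjusted p = 0.00552) and *PPL* (-0.36, adjusted p = 0.0108).

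Partners and modifiers of keratins showed no single direction. All 13 listed were tested, and 2 were higher and 1 lower at 8 cP than at 0.77 cP in SC cells (median 0.040), and 2 higher and 2 lower in shTRPV4 cells than in SC 8 cP cells (median -0.029). *PNN* (pinin), a nuclear and desmosome-associated protein, was higher in each (0.21 and 0.38; adjusted p = 0.00591 and 3.71e-05). *TCHP* (trichoplein), a keratin-binding protein, was higher in the first (0.31, adjusted p = 0.0121), and *TRADD*, an adaptor of the tumour necrosis factor receptor that binds KRT18, was lower (-0.39, adjusted p = 0.0101). *FAM83H*, which recruits a kinase to keratin filaments, was higher in the second (0.55, adjusted p = 8.49e-05), while the deacetylase gene *SIRT2* was lower (-0.16, adjusted p = 0.0183). *TCHP* shares 2996 exon bases with a gene of the opposite strand.

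Of 23 luminal regulators and epithelial adhesion genes, 13 were tested. At 8 cP in SC cells 5 were lower with edgeR (median -0.22), 7 at an unadjusted p below 0.05 and 4 with DESeq2. By each of these, 0 were higher. *ELF3*, an epithelial transcription factor gene that shares 664 exon bases with other genes, had the largest difference (-1.22, adjusted p = 0.000518), followed by the tight junction gene *CLDN7* (-0.54, adjusted p = 0.00798), the transcription factor gene *SPDEF* (-0.48, adjusted p = 0.00541) and *CLDN4* (-0.28, adjusted p = 0.0059) among the 4 named. Between shTRPV4 cells and SC 8 cP cells, 3 were higher and 3 lower (median -0.0071). *GATA3*, a luminal transcription factor gene, was higher (0.30, adjusted p = 0.00265), and *TFAP2C*, *CLDN7* and *CLDN4* were lower (-0.56, -0.56 and -0.29; adjusted p = 0.00105, 0.00551 and 0.00298). *CLDN7* shares 269 exon bases with a gene on its own strand.

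Of 20 basal epithelial genes, *KRT17* among them, 16 were tested; 2 were lower and 1 higher at 8 cP in SC cells (median -0.017). *ITGB4*, the integrin subunit of hemidesmosomes, was lower (-0.42, adjusted p = 0.000386), and its partner *ITGA6* was higher (0.16, adjusted p = 0.0245). In shTRPV4 cells, 3 were higher and 2 lower than in SC 8 cP cells (median 0.068). The kinase gene *MYLK*, which shares 612 exon bases with *MYLK-AS1*, and the receptor gene *OXTR* were higher (0.64 and 0.62; adjusted p = 2.58e-07 and 6.05e-05), and the collagen gene *COL17A1* was lower (-0.42, adjusted p = 0.000224). The members' count in each comparison stands beside these lists as a description, since no list was tested as a set. The counts of every list are to be read against the shares of all genes tested that differed in either direction. These were 19.3% between the SC groups, 20.0% between shTRPV4 and SC 8 cP cells and 42.4% between shTRPV4 and SC baseline cells. In shTRPV4 cells against SC baseline cells, the counts higher and lower were 0 and 5 of the 5 other filament genes, 2 and 7 of the 14 desmosome and plakin genes, 4 and 2 of the 13 partners, 1 and 7 of the 13 luminal genes and 6 and 5 of the 16 basal genes.

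**Figure D5:**
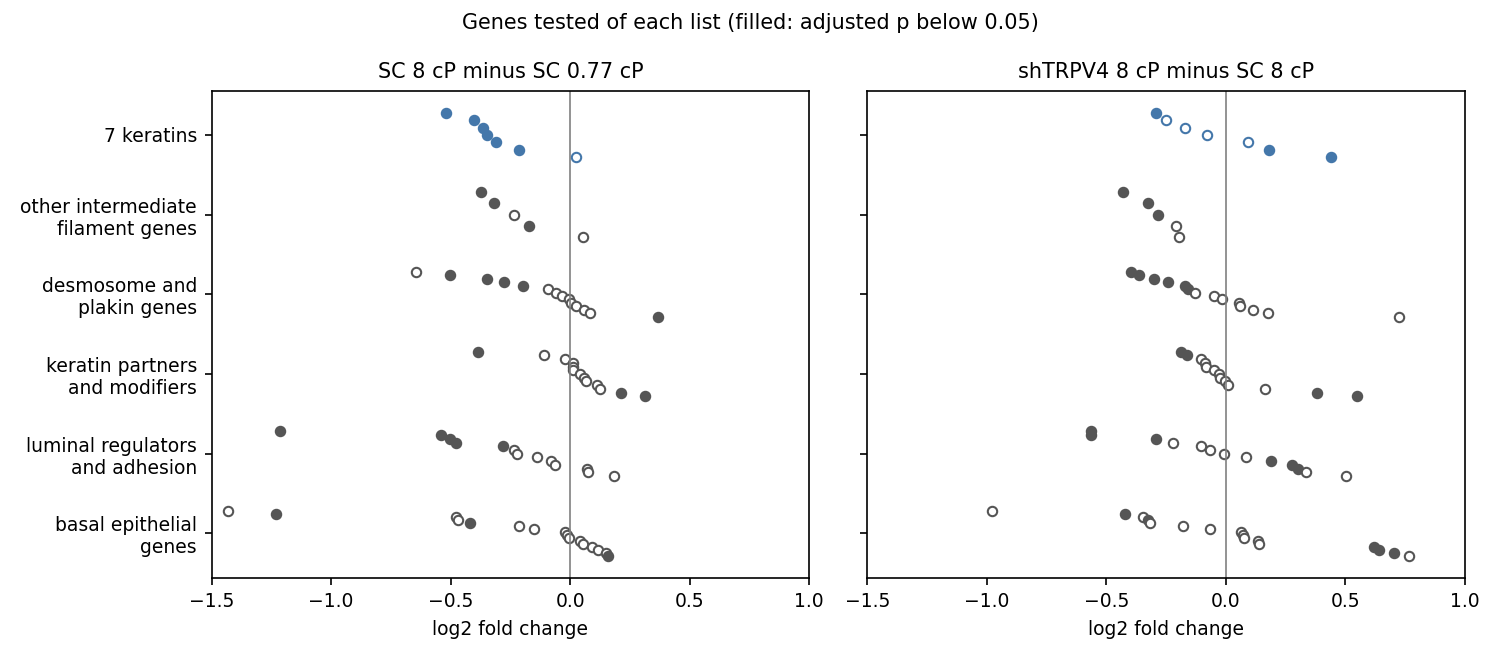
Log2 fold change of each tested gene of the 6 lists in SC 8 cP cells against 0.77 cP (left) and in shTRPV4 against SC 8 cP cells (right); filled points have an adjusted p below 0.05. On the left, 6 of the 7 keratins are filled and below 0, and on the right 1 keratin is filled below 0 and 2 above.

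Markers of other cell types were low. The endothelial markers summed to between 3.996 and 6.27 CPM in SC baseline cells, 2.5005 and 3.11 in SC 8 cP cells and 2.16 and 2.54 in shTRPV4 cells, nearly all from *PECAM1*, while *CDH5* had 0 or 1 count. The fibroblast markers summed to between 6.81 and 7.60, 5.53 and 6.00, and 5.79 and 5.99 CPM, with *DCN* at 0 to 2 counts, and the leukocyte markers to between 0.0655 and 0.210 CPM over all samples. The basal markers summed to between 0.710 and 0.842, 0.526 and 0.584, and 0.387 and 0.513 CPM, nearly all from *TP63*. The sums of the endothelial, fibroblast and basal markers were highest in SC baseline cells, as were the levels of *KRT8*, *KRT19*, *KRT81* and *KRT86*. Single markers did not all follow their sum. Mean levels of *COL1A1* were 6.40, 5.03 and 4.43 CPM in SC baseline, SC 8 cP and shTRPV4 cells. Those of *LUM* were 0.766, 0.690 and 1.47 CPM, and those of *VWF* 0.0778, 0.0310 and 0.120 CPM. The part of these markers in the differences of the keratins was not tested.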

How the data were processed

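The 9 samples of MDA-MB-231 cells formed 3 groups of 3. Per the labels and the methods of the study, the authors made strand-specific poly(A) libraries, mapped pairs of 100 bp reads to GRCh38.p13 with HISAT2 2.2.1 (SAMtools 1.1.3 is also named in the submitters' processing notes), summed reads on exons of Ensembl release 104 genes with HTSeq 0.13.5 and deposited the raw counts of each gene, without normalization. Groups came from the sample titles. The 7 members and all lists were chosen with earlier results of these data known. Gene symbols, positions, exon lengths, shared exon bases, transcripts and printed sequences came from GENCODE release 44 on GRCh38. Of 60664 gene IDs, 60463 matched. The shared exon bases thus come from another annotation release than the one used for counting, and may differ there.

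Counts were scaled by TMM, genes were kept by filterByExpr (18264), and edgeR's quasi-likelihood test (edgeR 4.0.16, R 4.3.3) was fitted to all 9 samples with 1 coefficient per group. P-values were adjusted over all genes tested by the Benjamini-Hochberg method, with a threshold of 0.05, and intervals are at 95%. CPM is relative to the TMM-scaled library size. Ratios of counts were compared by two-sided exact permutation tests (scipy 1.17.1). Coding sequences were aligned with Biopython 1.88. Totals per sample were 64571681 to 103518036, and the common biological coefficient of variation was 0.0633. The scripts were tested on simulated counts. Named genes were the 7 members, *VIM*, *TRPV4*, other keratins that passed a test, up to 4 genes of the smallest adjusted p per list and comparison, and the 3 genes most similar in pattern to 2 members. Some genes and sequences that this rule covers are not reported here.

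Alternatives were DESeq2 1.42.0, upper quartile scaling, other filters on low counts, only the 6 samples compared, the replicate number as a block, near copies summed, a second condition (log2 fold change of 1 or more in size), other gene lengths, and leaving out each sample in turn. The reference transcript length was an alternative chosen after seeing the data.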

Additional observations from a re-analysis of the deposited data

How the results depend on the processing

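With DESeq2, upper quartile scaling, at least 10 counts in every sample or only the 6 samples compared, 6 members passed between the SC groups and 3 between shTRPV4 and SC 8 cP cells, as in the results. With no filter on low counts, 6, 4 and 4 members passed in the 3 comparisons. Requiring in addition a log2 fold change of 1 or more in size left 0 members in all 3 comparisons. With each sample left out in turn, the counts of members ranged from 5 to 6 between the SC groups, from 2 to 3 between shTRPV4 and SC 8 cP cells, and from 4 to 5 between shTRPV4 and SC baseline cells. Over all genes, the calls between the SC groups fell from 3518 to 1409 without replicate 1 and 1927 without replicate 2 of SC baseline cells and to 1418 without replicate 3 of SC 8 cP cells, and those between shTRPV4 and SC 8 cP cells from 3649 to 2361 and 2179 without replicates 1 and 2 of SC 8 cP cells. The log2 fold change of *KRT18* in the comparison of shTRPV4 and SC baseline cells ranged from -0.071 to 0.0038 and reversed to the latter without replicate 3 of SC baseline cells (adjusted p = 0.962). The call of *KRT80* there was lost in 11 of 16 alternatives, for example with upper quartile scaling (0.10, adjusted p = 0.0759). The log2 ratio of *KRT8* to *KRT18* was also compared with each sample left out in turn. Its difference between groups then ranged from -0.160 to -0.0470, from -0.293 to -0.205 and from -0.422 to -0.3004 in the same order of comparisons. The log2 ratio of the length-scaled levels of *KRT8* and *KRT19* was -0.58 with all exon bases and reversed to 0.17 with the longest protein-coding transcript and to 0.62 with the reference transcript, as the shorter lengths of *KRT8* imply. The same replicate numbers in the labels were not shown to pair the samples, since deviations from the group means had correlations of -0.0546 to 0.0904 in same-numbered pairs and of -0.106 to 0.115 in others. With the replicate block, 6, 3 and 5 members passed in the 3 comparisons, and 3475, 3607 and 7731 genes in all. Depth limits the values of *KRT33B* and *KRT39*, which had at most 39 counts in a sample.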

Other observations

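*KRT87P*, a pseudogene that shares 32 exon bases with *KRT7* on the other strand, 1386 with a second annotated entry of the same name on its own strand, and short identical stretches with *KRT81* and *KRT86*, was singled out after its values were seen. It had 659 to 934 counts in SC baseline cells, 589 to 656 in SC 8 cP cells and 459 to 543 in shTRPV4 cells, which correspond to 9.39 ± 0.777, 6.59 ± 0.0876 and 5.70 ± 0.420 CPM (SD, n = 3). The log2 fold change was -0.51 between the SC groups (SE 0.084, edgeR adjusted p = 0.00123), -0.21 between shTRPV4 and SC 8 cP cells (SE 0.085, edgeR adjusted p = 0.0982) and -0.72 between shTRPV4 and SC baseline cells (SE 0.085, edgeR adjusted p = 8.68e-06). Its level was close to that of *KRT86* in CPM. *KRT83*, the third near copy of *KRT81*, had 8 to 21 counts in a sample and did not pass in any comparison.

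*KRT7-AS*, the antisense neighbour of *KRT7*, had 226 to 313 counts in SC baseline cells, 171 to 258 in SC 8 cP cells and 202 to 299 in shTRPV4 cells, against at least 38026 counts of *KRT7* in each sample. Its log2 fold change of -0.52 between the SC groups (SE 0.18, edgeR adjusted p = 0.0527) and of 0.35 between shTRPV4 and SC 8 cP cells (SE 0.18, edgeR adjusted p = 0.184) had the signs of *KRT7* but did not pass. Reads assigned to pseudogenes of *KRT8* came to between 0.399% and 0.636% of the counts of *KRT8*, and those of *KRT18* pseudogenes to between 0.138% and 0.254% of the counts of *KRT18*.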
